A study of Mus musculus with 54 samples.

Results

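Gene expression was compared between day 1 and day 2 of differentiation in Q133H myogenic progenitors. All genes of the deposited comparison of these days were taken, which gives 17303 genes of the 19653 listed in the series. The comparison rests on 6 of the 54 samples, with 3 labelled replicates at T24 (24 h in differentiation medium, day 1) and 3 at T48 (48 h, day 2). Q133H progenitors are emerin-null H2K mouse myogenic precursor cells, a conditionally immortalized myoblast line, that were transduced by lentivirus with emerin carrying the Q133H substitution and kept in puromycin throughout. Both days therefore share the emerin-null background, the transgene and the drug. Cells were grown on gelatin with γ-interferon, and then moved to medium with 5% horse serum without it. The other lines used here for comparison are wildtype progenitors, EMD-/y progenitors (emerin-null), and EMD-/y progenitors transduced with wildtype emerin (+EMD), S54F or Del9599, each at the same days. The study's methods describe lentivirus and puromycin for the transduced lines only. They also give fewer cells seeded per well for wildtype and EMD-/y than for the mutant lines. Each is a single line, so effects of a line, its emerin, its transduction and drug, and its seeding cannot be told apart.

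Emerin is an inner nuclear membrane protein that binds lamins, the chromatin protein Banf1 and the deacetylase Hdac3, and its loss or mutation causes X-linked Emery–Dreifuss muscular dystrophy. Differentiating myoblasts first leave the cell cycle. Under MyoD, myogenin and the Mef2 factors they then switch on genes for fusion, the sarcomere and calcium handling. The comparison asks which of these steps was under way between day 1 and day 2 in Q133H cells.

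The deposited values are 1 normalized count per gene and day, the authors' value for the group. They hold no spread, so no difference below has a test, and each statement describes these 6 libraries only. A gene was counted as higher or lower when its ratio, log2 of (T48 + 1)/(T24 + 1), was at least 1 in size (2-fold) and its larger value was at least 10. A gene below 10 on 1 day was therefore measured only if it reached 10 on the other. Low genes without a change were left out, which raises the shares in lists with many low genes. The values of a table summed to 19.1 at T24 and 19.4 at T48 in units of 1e6 normalized counts. The 2 columns are not plain means. A gene with 1 read in 1 of the 6 libraries has a value above 0 at both days, at ratios of 1.08 to 1.09, so ratios were drawn towards 1 and the ratios below understate the change of low or variable genes. This can be read from T24, which was deposited in 3 tables. For 79 cell cycle genes the T24 value in the table against day 0 differed from that used here by a median of 0.02 on the log2 scale. For 45 sarcomere genes it was lower by a median of 0.40 (log2 difference -0.40), and Ckm stood at 75.7 in one table and at 17.7 in the other.

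The targeted gene was read first. Mouse Emd had values of 0.161 at T24 and 0.149 at T48, the level of a single read, and in the tables against wildtype it stood at 1.09 beside 1855 in wildtype cells at T24 and at 0.677 beside 1124 at T48. The level of the transgene was not analysed here. The myogenic markers were present, with a summed value of 39626 over 8 markers at T24 and 93645 at T48. Pax7, the satellite cell factor, was the exception at 6.43 and 8.38. Markers of neural and glial cells summed to 7.40 and 11.4, and those of endothelial cells to 53.3 and 47.5. Macrophage markers summed to 300 and 369, adipocyte markers to 1029 and 1133, bone and cartilage markers to 2053 and 1951 and fibroblast markers to 3813 and 4105. Of the listed markers 0 of 5 neural and glial, 2 of 4 endothelial, 2 of 5 macrophage and 3 of 6 adipocyte ones reached 10. So did 5 of 9 bone and cartilage markers and 5 of 6 fibroblast ones. Ptprc, Csf1r, Adipoq, Pparg, Sp7 and Pecam1 stood below 10 at both days, while the bone genes Runx2 and Bglap, given at the end, stood above it. The part of other cell types in the results was not tested. Smooth muscle genes other than Des, which immature muscle also uses, summed to 20595 and 35129.

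Between day 1 and day 2, 831 of 13119 genes were higher by at least 2-fold (6.33%), and 582 were lower (4.44%). These shares over all genes are the background for the count of each list below. Sarcomere genes made up 42 of the higher genes and cell cycle genes 57 of the lower ones, while 120 of the 831 and 90 of the 582 were on any of the 25 gene lists examined. The higher genes had a median fold of 2.79, and 225 of them were past 4-fold and 46 past 8-fold. The lower genes had a median fold of 2.57, and 85 were past 4-fold. The threshold runs through a dense part of the distribution, since 129 genes lay less than 0.1 short of it on the log2 scale among those with positive ratios and 120 among those with negative ones. The median log2 ratio of all 13119 genes was 0.02 with an SD across genes of 0.67.

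**Figure D1:**
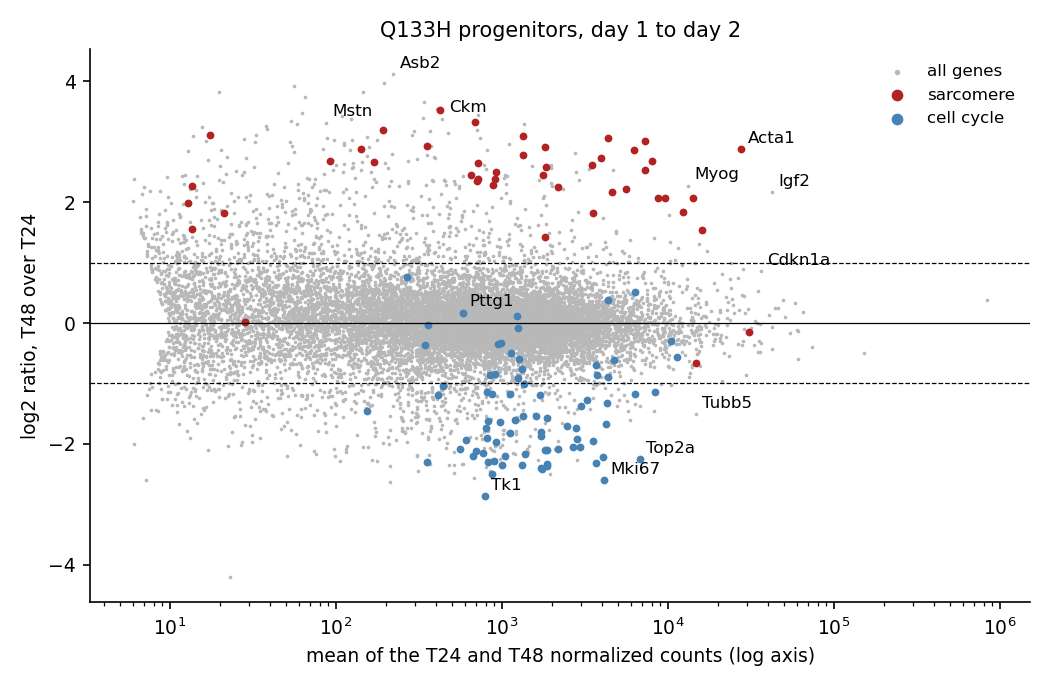
Each point is a gene of the Q133H comparison, with the mean of its T24 and T48 normalized counts on the x axis (log scale) and its log2 ratio of T48 over T24 on the y axis. Dashed lines mark 2-fold, and sarcomere genes (red) lie above the upper line in 42 of 45 cases while cell cycle genes (blue) lie below the lower line in 57 of 79.

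Among genes with a value of at least 100, the 12 with the largest ratios held 2 genes of the muscle lists, Unc45b and Trdn. Asb2, which encodes a muscle ubiquitin ligase subunit, had 23.2 normalized counts at T24 and 419 at T48 (log2 ratio 4.12). Ppp1r3a, the glycogen-targeting subunit of muscle phosphatase, went from 6.04 to 106 (3.92) and Srpk3, a muscle kinase controlled by Mef2, from 8.21 to 122 (3.74). Mypn (myopalladin, 63.4 and 746) and Unc45b (a myosin chaperone, 67.2 and 785) had log2 ratios of 3.54 and 3.53. Trdn (triadin, 120 and 1315) and Colq, the collagen tail of acetylcholinesterase (17.8 and 200), followed at 3.45 and 3.42. Also among the 12 largest were Fam78a (3.98), Cbfa2t3 (3.83), Filip1 (3.65), Abcc9, a subunit of the potassium channel gated by ATP (3.48), and the transcription factor Casz1 (3.39). All 12 also had a log2 ratio above 0 in wildtype cells, from 0.60 for Colq to 2.54 for Ppp1r3a. Read from the tables against wildtype the ratios of most of these genes were larger, for example 5.21 for Asb2, 5.02 for Ppp1r3a, 5.18 for Srpk3, 5.01 for Unc45b and 4.80 for Trdn, and 3.52 for Colq.

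The most abundant of the higher genes was Igf2, the fetal insulin-like growth factor, at 15481 and 69606 (2.17). Skeletal actin Acta1 went from 6633 to 48715 (2.88), which per kilobase of transcript is 4478 and 32893 normalized counts. Desmin (Des, 10405 and 23845), Tpm2 (8148 and 23718), titin (Ttn, 5445 and 22825) and Myog (4551 and 22025) completed the 6. The 831 higher genes held 1.69% of the summed normalized counts at T24 and 5.35% at T48.

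The myogenic transcription factors differed among themselves. Myog, which drives the commitment of myoblasts, had a log2 ratio of 2.27, and Myod1, which acts upstream of it, one of 1.24 (6791 and 16044). Myf6 was low, with 5.69 and 12.5 normalized counts (1.01). Myf5, the factor of proliferating myoblasts, had 854 and 729 (-0.23). Among the partners of these factors Mef2c had 554 and 3393 (2.61), Mef2a 4500 and 12002 (1.42) and Mef2d 3118 and 6274 (1.01). The Id proteins, which sequester the dimer partners of MyoD, stayed within 2-fold, from -0.46 for Id2 (1501 and 1090) to 0.68 for Id4 (64.0 and 103). In all, 6 of 14 myogenic regulators were higher and 0 lower.

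Of the 51 listed sarcomere genes 45 reached the minimum, some only through their T48 value. Of these 45, 42 were higher (93.3%), 0 were lower, and the median log2 ratio was 2.45. This median came to 3.59 when the same 2 groups were read from their tables against wildtype. All 7 myosin heavy chains that reached the minimum were past 2-fold. Embryonic Myh3 was the most abundant of them with 3712 and 15594 (2.07), adult fast Myh1 had 1610 and 12987 (3.01), slow Myh7 124 and 1257 (3.33), perinatal Myh8 200 and 1095 (2.45) and fast Myh4 2.79 and 31.9 (3.12). Per kilobase, Myh3 stood at 614 and 2580. The myosin light chains Myl1 (1521 and 11035), Mylpf (2158 and 13829) and Myl4 (2148 and 12463) had log2 ratios between 2.54 and 2.86. All 7 troponins that reached the minimum were higher, led by fast troponin T, Tnnt3 (932 and 7752, 3.06), and slow troponin I, Tnni1 (987 and 6025, 2.61). Of the Z-disc, M-band and giant proteins 22 of 23 were higher, with Mybpc1 at 3.20, the thin filament protein Lmod3 at 3.09 and myomesin Myom1 at 2.93. The 3 sarcomere genes within 2-fold, named here for that reason, were Tpm3 (18148 and 11507, -0.66) and Tpm1 (32170 and 29173, -0.14), which non-muscle cells also use, and Xirp2 (28.4 and 28.6, 0.01).

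Promoter sequence of 4 of the higher muscle genes is given here because these genes moved together and because their upstream DNA holds textbook muscle motifs. The 150 bases before the start site are shown 5′ to 3′ on the gene's strand, from RefSeq's GRCm38.p6 table, with an E-box (CANNTG), a MEF2 motif or a CArG box, the site of serum response factor, in capitals. The MEF2 pattern was strict: C or T, then TA, 4 bases of A or T, TA, and a final A or G. The AT-rich ctatatttat of Myog departs from it at its last base and so stays in lower case.
Myog, chr1:134289854-134290003, plus strand: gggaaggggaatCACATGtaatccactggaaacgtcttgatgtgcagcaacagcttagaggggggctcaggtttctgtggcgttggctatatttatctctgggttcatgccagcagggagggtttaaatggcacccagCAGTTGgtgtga
Acta1, chr8:123894776-123894925, minus strand: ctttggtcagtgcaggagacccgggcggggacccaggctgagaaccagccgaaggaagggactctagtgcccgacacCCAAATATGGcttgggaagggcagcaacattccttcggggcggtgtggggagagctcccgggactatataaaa
Myh8, chr11:67276974-67277123, plus strand: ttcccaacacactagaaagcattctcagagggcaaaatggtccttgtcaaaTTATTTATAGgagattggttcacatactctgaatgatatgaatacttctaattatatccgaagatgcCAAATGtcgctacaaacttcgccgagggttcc
Mylpf, chr7:127211458-127211607, plus strand: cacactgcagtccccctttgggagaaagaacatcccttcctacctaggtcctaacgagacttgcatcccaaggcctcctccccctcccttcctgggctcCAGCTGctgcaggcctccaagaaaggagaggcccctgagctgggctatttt

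The MEF2 motif of Myh8 begins 99 bases and the CArG box of Acta1 73 bases before the start site. Motifs were counted on both strands over 250 bases before each of 32851 start sites. The E-box CANNTG was in 83.3% of 42 promoters of sarcomere genes, in 70.0% of 817 promoters of the higher genes, in 57.3% of 12799 promoters of all genes past the minimum and in 66.2% of all RefSeq promoters. Its form CAGCTG, which of the stretches shown only that of Mylpf holds in capitals, was found in 35.7%, 21.5% and 12.3% of the first 3 of these sets. MEF2 motifs were in 26.2%, 4.28% and 1.57%, and CArG boxes in 14.3%, 1.84% and 1.20%. Over all RefSeq promoters the shares of these 3 were 13%, 2.92% and 1.47%. A match describes the letters only, and a CArG box and a MEF2 motif can overlap.

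Of the fusion and adhesion list 6 of 19 genes were higher and 0 lower, with a median of 0.39, and both fusogens were among them. Mymk (myomaker), the membrane protein that starts fusion, had 977 and 5740 normalized counts (2.55) and Mymx (myomixer), which completes it, 48.1 and 275 (2.49). Among adhesion molecules Ncam1 (1.08) and Jam3 (1.06) were past 2-fold, and Cdh15 (3677 and 6405) and Itga7 (6099 and 9696) were not, at 0.80 and 0.67. Of the 28 listed genes of excitation-contraction coupling and muscle energy supply 20 reached the minimum. Of these, 16 were higher and 0 lower, with a median of 1.88. The calcium pump Atp2a1 had 249 and 2464 (3.30), the histidine-rich calcium store protein Hrc 100 and 682 (2.75) and the ryanodine receptor Ryr1 380 and 1603 (2.07). Muscle creatine kinase Ckm had 75.7 and 800 (3.39) and myoglobin Mb 156 and 1314 (3.06). At the neuromuscular synapse the fetal acetylcholine receptor subunit Chrng had 630 and 1947 (1.63), Chrna1 7241 and 14892 (1.04), and the Musk adaptor Dok7 189 and 910 (2.26), while Chrnb1 had 1664 and 1606 (-0.05).

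**Figure D2:**
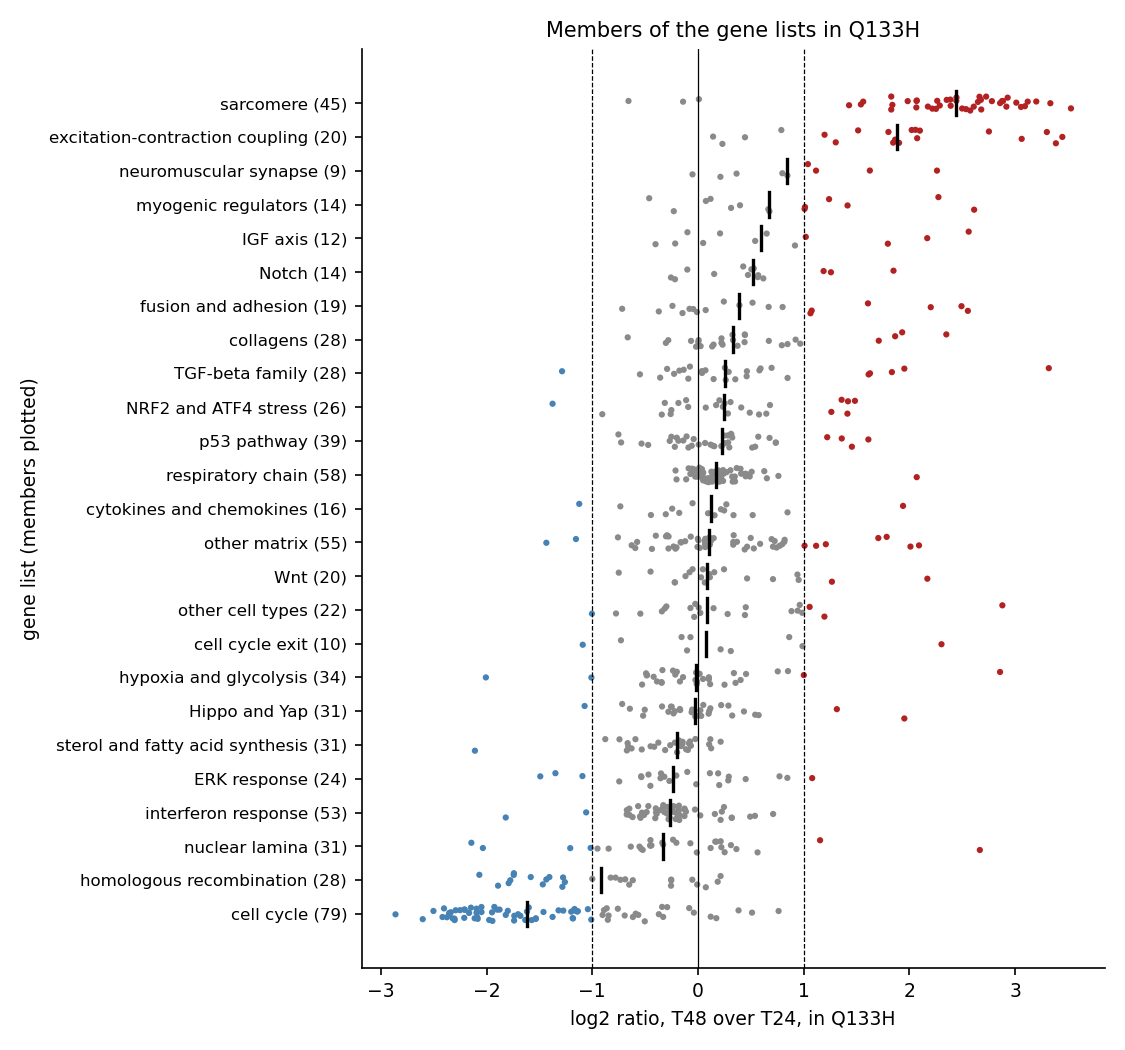
Points are the measured members of each gene list (y axis, number in brackets) at their log2 ratio of T48 over T24 in Q133H (x axis), red at or above 1, blue at or below -1, with the list's median as a black bar. The sarcomere and calcium handling lists sit on the right, with medians of 2.45 and 1.88, and the cell cycle list on the left with -1.62.

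Cell cycle genes were lower at day 2. Of 79 measured genes 57 were lower by at least 2-fold (72.2%) and 0 higher, with a median log2 ratio of -1.62, and their summed normalized counts went from 242864 to 104590. The mitotic genes were the most uniform, with 27 of 28 lower and a median of -2.13. Mki67, the proliferation antigen, had 7088 and 1166 (-2.60), separase Espl1 1473 and 259 (-2.50), the kinase Plk1 2949 and 552 (-2.42) and the kinetochore protein Cenpf 2889 and 546 (-2.40). Securin Pttg1, which holds separase inactive, was the 1 mitotic gene within 2-fold, with 545 and 615 (0.17). The lowest ratio of all genes with a value of at least 100 was that of thymidine kinase Tk1, 1387 and 190 (-2.86). The others among the 12 lowest were Ska1 (-2.63), Pimreg (-2.57), Pclaf (-2.50), Mybl2 (-2.49), Knl1 (-2.45), Kif14 (-2.45) and Cep55 (-2.39), beside Mki67, Espl1, Plk1 and Cenpf. Of these 12, 5 were on the cell cycle list, and Mybl2 encodes a transcription factor of the cycle.

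Within the cycle the roles differed in size. Replication genes had a median of -1.27 with 18 of 25 lower, and the licensing factor Cdc6 (1105 and 239, -2.21), Mcm10 (959 and 248, -1.94) and Mcm5 (2663 and 765, -1.80) followed Tk1. Of the cyclins and their kinases 10 of 16 were lower. Ccna2 had 6722 and 1451 (-2.21), Ccnb2 1722 and 372 (-2.21), Cdk1 2934 and 686 (-2.09) and the phosphatase Cdc25c 588 and 119 (-2.30). The E2F factors had a median of -0.33, and the 2 lower ones were the repressors E2f7 (901 and 211, -2.09) and E2f8 (2377 and 1035, -1.20). The most abundant lower genes were Tubb5 (21761 and 7670, -1.50), Nap1l1 (13887 and 6850, -1.02), Tubb4b (12134 and 6026, -1.01), Hmgb1 (12065 and 4373, -1.46), Rrm2 (11486 and 5226, -1.14) and Top2a (11179 and 2349, -2.25). Tubulins, Hmgb1 and Nap1l1 have near-identical copies, so how their reads were assigned is uncertain.

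Promoters of 4 of these genes are given in the same way, with the CCAAT box (CCAAT or ATTGG) and the cell cycle homology region (TTTGAA or TTCAAA) in capitals. The homology region is the element through which the DREAM and MuvB complexes are known to time mitotic genes. The stretch of Ccnb1 holds CCAAT boxes and neither TTTGAA nor TTCAAA, and other forms of the homology region were not searched.
Mki67, chr7:135716380-135716529, minus strand: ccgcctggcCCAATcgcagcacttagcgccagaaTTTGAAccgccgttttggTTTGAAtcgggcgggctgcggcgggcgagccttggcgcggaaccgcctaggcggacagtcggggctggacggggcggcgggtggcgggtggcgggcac
Espl1, chr15:102296143-102296292, plus strand: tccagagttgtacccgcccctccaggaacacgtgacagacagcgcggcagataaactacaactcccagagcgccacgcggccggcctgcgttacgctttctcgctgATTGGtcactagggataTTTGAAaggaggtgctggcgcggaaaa
Top2a, chr11:99024190-99024339, minus strand: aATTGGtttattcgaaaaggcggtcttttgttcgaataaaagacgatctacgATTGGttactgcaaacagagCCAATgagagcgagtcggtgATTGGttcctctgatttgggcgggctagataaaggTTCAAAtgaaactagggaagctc
Ccnb1, chr13:100786487-100786636, minus strand: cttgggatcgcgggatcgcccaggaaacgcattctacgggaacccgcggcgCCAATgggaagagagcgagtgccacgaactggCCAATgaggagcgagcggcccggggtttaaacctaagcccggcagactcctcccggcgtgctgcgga

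In Espl1 the CCAAT box begins 44 bases and the homology region 27 bases before the start site. Over 250 bases the CCAAT box was found in 77.8% of 27 promoters of mitotic genes, in 48.2% of 494 promoters of the lower genes, in 35.6% of promoters of all genes past the minimum and in 33.9% of all RefSeq promoters. The homology region was in 37.0%, 17.4%, 10.5% and 16.0%, and both together were in 33.3%, 11.3%, 3.95% and 5.55%. Of 25 mitotic genes with a promoter in the table, 5 held neither, namely Anln, Birc5, Ndc80, Nuf2 and Pttg1. All of these but Pttg1 were lower at day 2.

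Of the 7 inhibitors of cyclin-dependent kinases 1 was higher and 1 lower. Cdkn1a (p21) had 25887 and 47091 normalized counts, a log2 ratio of 0.86, and in the table against day 0 it stood at 12148 on day 0 and 25218 on day 1. Cdkn1c (p57), a kinase inhibitor that acts during terminal differentiation, had 353 and 1748 (2.30). The retinoblastoma gene Rb1 had 3319 and 6588 (0.99), while its relative Rbl1, a gene used in S phase, had 1353 and 816 (-0.73). Cdkn2d was lower (370 and 174, -1.09). Genes of homologous recombination, which cells use mainly in S and G2, followed the cycle in part, with 13 of 28 lower, 0 higher and a median of -0.91. Brca1 had 1254 and 298 (-2.07), the helicase Brip1 706 and 190 (-1.89) and the nuclease subunit Eme1 391 and 112 (-1.79). Of the p53 pathway 4 of 39 were higher (10.3%, beside 6.33% of all genes) and 0 lower. Trp53 itself had 6862 and 5897 (-0.22), and the higher genes were Perp (321 and 983, 1.61), Gadd45a (284 and 780, 1.46), Steap3 (599 and 1539, 1.36) and Cd82 (1415 and 3303, 1.22).

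Of the lamins, LEM-domain proteins and other nuclear envelope genes 4 of 18 were lower and 1 higher. Nurim (Nrm) had 188 and 41.8 (-2.14), lamin B1 (Lmnb1) 2343 and 571 (-2.03), the lamin B receptor Lbr 1757 and 760 (-1.21), and the giant nesprins Syne2 647 and 320 (-1.02) and Syne1 927 and 2066 (1.16). Hdac3, which emerin binds, had 1982 and 1578 (-0.33), and Hdac9, a partner of Mef2, 38.1 and 247 (2.67), the 1 gene of 13 deacetylases and corepressors past 2-fold.

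Secreted factors and their receptors were next. In the insulin-like growth factor axis 4 of 12 were higher, namely Igf1 (59.1 and 354, 2.56), Igf2 (2.17), the binding protein Igfbp5 (4560 and 15839, 1.80) and the clearance receptor Igf2r (6808 and 13807, 1.02), while the signalling receptor Igf1r had 2608 and 2434 (-0.10), given here for contrast and outside the naming rule. Of 13 ligands and inhibitors of the TGF-beta family 5 were higher and 1 lower. Myostatin (Mstn), which restrains muscle growth, had 15.1 and 159 (3.32), its antagonist Fst 804 and 2485 (1.63), Tgfb2 109 and 424 (1.95) and Tgfb3 1260 and 4495 (1.83). None of the 15 receptors and Smads was past 2-fold. In the Notch list of receptors, ligands and targets 3 of 14 were higher and 0 lower. The ligand Dll1 had 290 and 1047 (1.85), the bHLH factor Hes6 1888 and 4516 (1.26) and Heyl 11.2 and 26.8 (1.19). Of 20 Wnt genes Wnt4 (47.5 and 217, 2.17) and Wnt9a (544 and 1311, 1.27) were higher, 10% beside 6.33% of all genes. The ERK response genes Etv4 (909 and 323, -1.49), Dusp5 (348 and 136, -1.35) and Myc (1094 and 513, -1.09) were lower, and the feedback inhibitor Spry1 was higher (313 and 662, 1.08).

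Matrix genes stayed mostly within 2-fold. Of 28 collagens 4 were higher (14.3%), 0 lower, and the median was 0.33. Col1a1 had 937 and 759 (-0.30) and Col3a1 8161 and 10581 (0.37), and the higher ones were Col25a1, a collagen needed for motor innervation (168 and 861, 2.35), Col16a1 (193 and 738, 1.93) and, at low counts, Col9a2 (3.44 and 15.2) and Col20a1 (4.34 and 16.5). In the other matrix genes 7 of 55 were higher (12.7%) and 2 lower (3.64%), with thrombospondin Thbs2 at 189 and 766 (2.01), osteoglycin Ogn at 777 and 2679 (1.79) and Thbs3 at 329 and 147 (-1.15). In the Hippo list Yap1 had 3072 and 3181 (0.05) and Tead4, a Tead factor of muscle differentiation, 364 and 906 (1.31). Of its 31 genes 2 were higher (6.45%) and 1 lower (3.23%), near the shares of all genes (6.33% and 4.44%).

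Metabolic lists had medians within 0.20 of 0 on the log2 scale. Of 34 hypoxia and glycolysis genes 2 were higher, the muscle mutase Pgam2 (195 and 1420, 2.86) and lactate dehydrogenase Ldhb (1477 and 2958, 1.00), and 2 lower, apelin Apln (333 and 82.1, -2.01) and the lactate exporter Slc16a3 (706 and 351, -1.01). Of 58 respiratory chain subunits 1 was higher, muscle Cox8b (29.2 and 126, 2.07), and the median was 0.17. Sterol and fatty acid genes had a median of -0.20 with 0 of 31 higher and 1 lower. Interferon response genes had a median of -0.27 with 2 of 53 lower, Cxcl10 (762 and 215, -1.82) and Rsad2 (958 and 460, -1.06). In the NRF2 and ATF4 list 5 of 26 were higher and 1 lower. The stress factors Ddit3 (442 and 1240, 1.48) and Atf3 (102 and 275, 1.42), the glutathione transferase Gsta4 (1.41), the cystine carrier Slc7a11 (67.2 and 174, 1.36) and heme oxygenase Hmox1 (2492 and 5977, 1.26) were higher, and Phgdh, the first enzyme of serine synthesis, was lower (7106 and 2739, -1.38). Of 16 cytokines Il1rn was higher (34.1 and 134, 1.94) and Ccl5 lower (201 and 91.6, -1.12). The hypoxia and glycolysis list (5.88% in each direction) and the cytokines (6.25% in each) lay near the shares of all genes, 6.33% and 4.44%.

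The day before gives these ratios a starting point. The comparison of day 0 with day 1 uses the same T24 libraries, so a low T24 value raises 1 ratio and lowers the other, and the values are set side by side only. Of the 831 genes higher at day 2, 244 had been lower on day 1 than on day 0 by at least 2-fold and 92 higher, of 829 listed. The share of all genes past 2-fold from day 0 to day 1 was not analysed here. Neither these counts nor the list counts of that step below are therefore read as an excess. Sarcomere genes had a median log2 ratio of -1.34 from day 0 to day 1, with 33 of 45 lower by 2-fold, and 2.45 from day 1 to day 2. Acta1 stood at 11372 on day 0 and 4377 on day 1 in that table, Myh3 at 7131 and 2814, Mymk at 1936 and 745, and Myog at 5208 and 3322. The cell cycle genes had a median of 0.05 from day 0 to day 1, with 0 of 79 past 2-fold in either direction, and -1.62 afterwards. Mki67 stood at 9804 and 7202, and Ccna2 and Cdk1 had log2 ratios of -0.08 and -0.24 in that step. Sterol and fatty acid genes had a median of 1.56 in the first step, with 22 of 31 higher, and interferon response genes one of 0.94, with 25 of 53 higher. From day 1 to day 2 all but 1 of the first list and all but 2 of the second stayed within 2-fold.

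**Figure D3:**
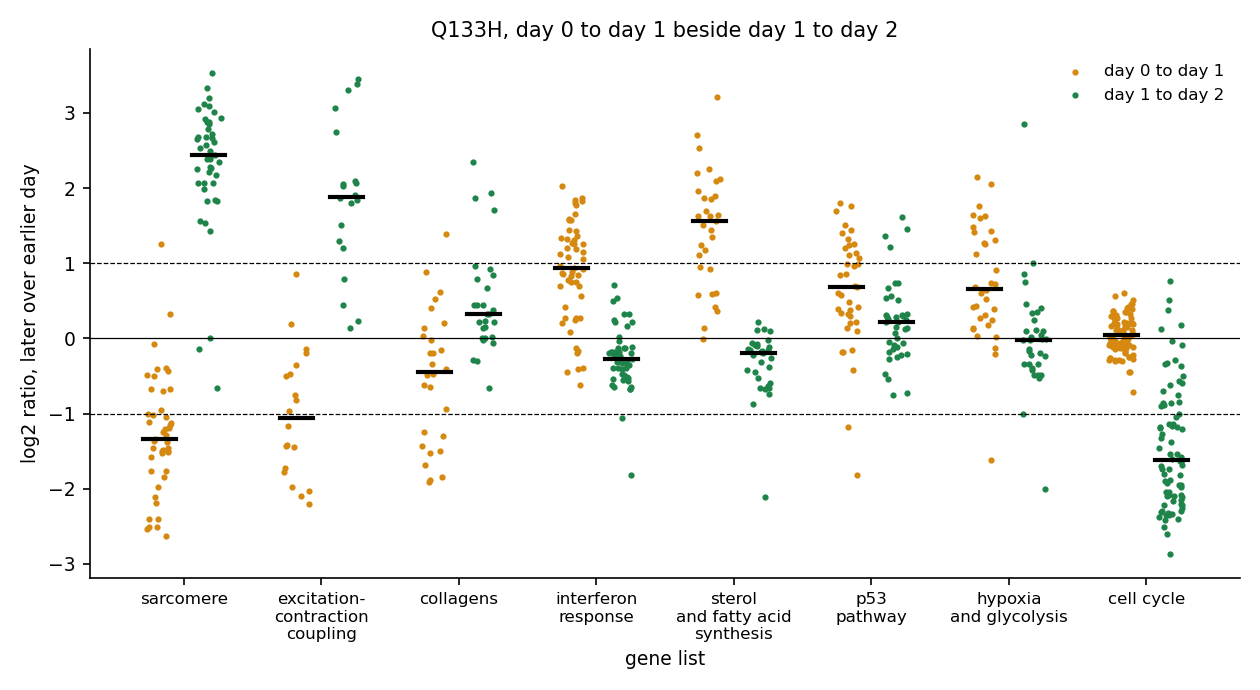
For 8 gene lists (x axis) points are the log2 ratios of the members (y axis) in Q133H from day 0 to day 1 (orange) and from day 1 to day 2 (green), with medians as bars and dashed lines at 2-fold. Sarcomere genes sit at a median of -1.34 and then 2.45, and cell cycle genes at 0.05 and then -1.62. Both steps use the same day 1 libraries.

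The other lines were measured over the same days in libraries of their own. In wildtype cells 8.01% of genes were higher and 11.9% lower, in EMD-/y cells 7.61% and 11%, in S54F cells 9.39% and 11.1%, in Del9599 cells 8.95% and 5.24%, and in +EMD cells 11% and 9.53%. With each line read from its own day 1 to day 2 table, Q133H thus had the lowest shares of the 6 lines in both directions. It also had the smallest SD of log2 ratios across genes in each pair compared (0.66 beside 0.81 to 0.91). Read from the tables against wildtype, Q133H had 694 lower genes of 13104, beside 700 of 13363 in Del9599, so its rank for lower genes depends on the tables used. The ratios of each line come from its own table. Whether they were drawn towards 1 to the same degree in all 6 lines was not tested, and ranks of the lines by size rest on it. Of the 831 genes higher in Q133H, 309 were also higher in wildtype cells, 37.2% of the Q133H list and 29.1% of the wildtype list. With Del9599 564 were shared, 67.9% and 47.2%. Of the 582 lower genes 367 were shared with wildtype, 63.1% of the Q133H list and 23.2% of the wildtype list, and 366 with Del9599, 62.9% and 52.3%. Across genes past the minimum in both lines, Pearson's r of the log2 ratios was 0.49 with wildtype (12544 genes), 0.45 with EMD-/y, 0.64 with S54F, 0.65 with +EMD and 0.80 with Del9599 (12842 genes). These are descriptions across genes, which are not independent. Wildtype and EMD-/y, with the lowest r, were also the lines in which 40 features, 35 of them predicted genes and picked for a log2 ratio of at least 2.5 in wildtype and near 0 in Q133H, had medians of 3.70 and 3.93, beside -0.06 to 0.67 in the other 3 lines. The part of these features or of a library batch in r was not tested.

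The shared direction hides differences in size. Cell cycle genes had a median of -2.68 in wildtype and -1.62 in Q133H, and the mitotic genes one of -4.52 and -2.13. For Mki67 the log2 ratio was -5.72 in wildtype, -3.35 in EMD-/y, -3.91 in S54F, -1.71 in Del9599, -1.84 in +EMD and -2.60 in Q133H. Sarcomere genes had a median of 1.91 in wildtype, 1.66 in EMD-/y, 2.56 in S54F, 2.95 in +EMD and 4.09 in Del9599, beside 2.45 in Q133H. These medians are over the genes past the minimum in each line, 45 in Q133H and 49 in each other line, so the gene sets differ. Read from the tables against wildtype the Q133H median was 3.59, so its rank among the lines depends on the tables used. Myog had 0.55 in wildtype, 0.89 in +EMD, 2.04 in Del9599 and 2.27 in Q133H. In the tables against wildtype the sarcomere list lay below wildtype by a median log2 difference of -4.47 at T24 and -2.71 at T48, and the mitotic genes above it by 0.88 and 3.0.

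**Figure D4:**
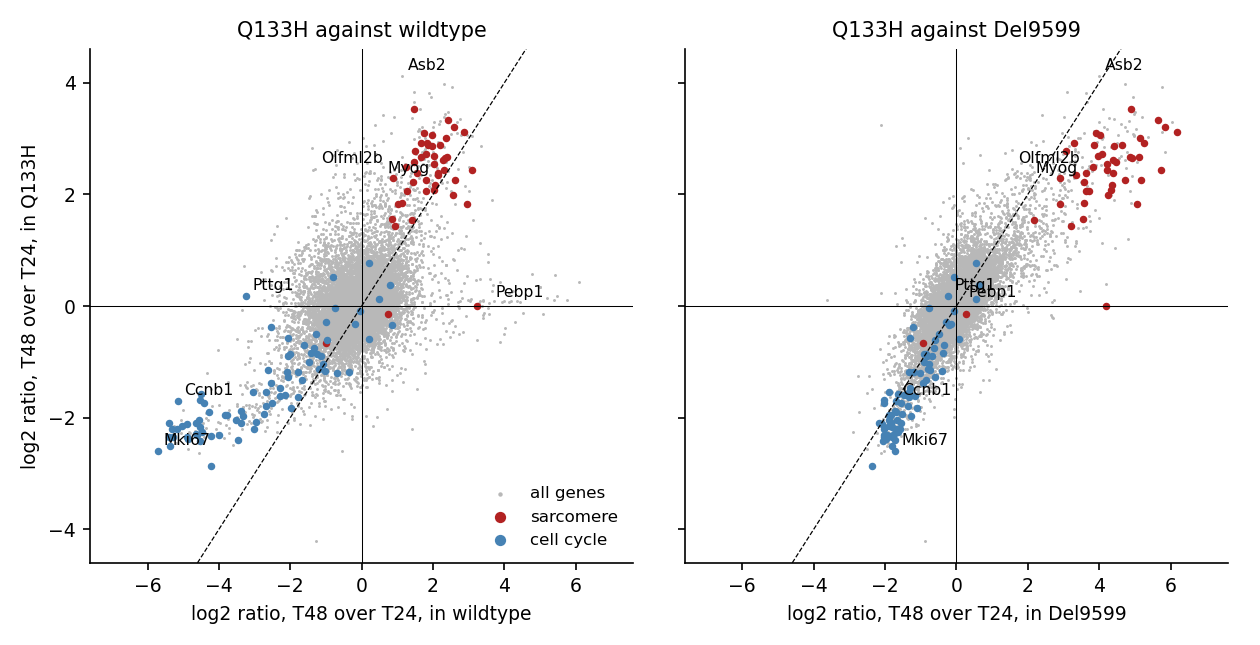
Each point is a gene, with its log2 ratio of T48 over T24 in wildtype (left) or Del9599 (right) on the x axis and in Q133H on the y axis, and the dashed line marks equal ratios. Cell cycle genes (blue) lie above the line in wildtype, with Mki67 at -5.72 and -2.60, and near it in Del9599, where it had -1.71. Sarcomere genes (red) lie to the right of the line in Del9599.

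Some lists differed in direction. The Notch genes had a median of 0.52 in Q133H and between -1.05 and -0.16 in the other 5 lines, and the p53 list one of 0.22 beside -0.84 to -0.26. The myogenic regulators had 0.67 in Q133H, 0.83 in Del9599 and -0.58 in wildtype, but this list pools roles that differed. In wildtype the myogenic bHLH factors had a median of 0.47 and their partners, with the Mef2 factors, 0.20. Both were above 0, as in Q133H (1.13 and 1.01). The roles below 0 in wildtype were the Id inhibitors (-1.12) and the progenitor factors Pax3 and Pax7 (-1.07). In Q133H the Id inhibitors had 0.24 and Pax3 0.12, while Pax7 stayed below the minimum. Dll1 had a log2 ratio of 1.85 in Q133H, 0.77 in Del9599 and between -0.55 and -0.26 in the other 4 lines. Hey2 had 0.43 in Q133H and between -2.18 and -0.89 in the other 5. Perp had 1.61 in Q133H, 1.16 in Del9599 and 0.82 in +EMD, and between -2.16 and -1.32 in wildtype, EMD-/y and S54F. Collagens had 0.33 in Q133H, 0.26 in S54F, -0.01 in Del9599 and +EMD, and -0.53 in wildtype, over 28 genes in Q133H and 30 to 34 in the other lines. Hey2, like Igf1r and Syne2 above, was named after its values were seen.

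**Figure D5:**
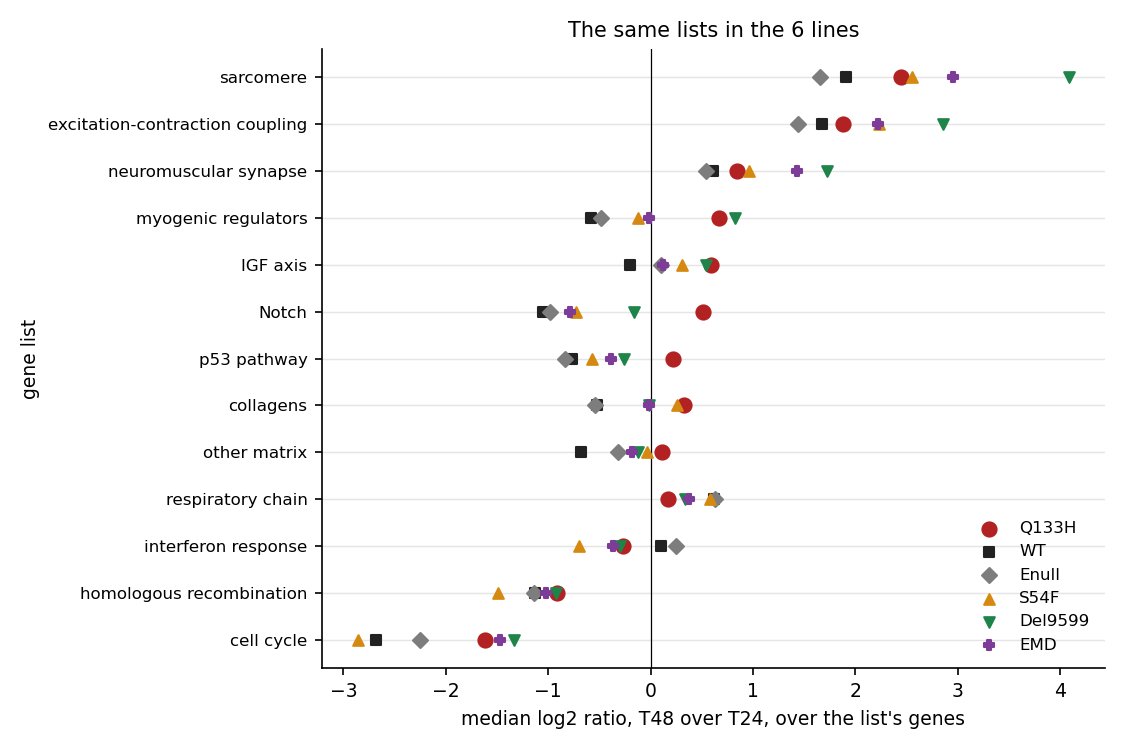
For 13 gene lists (y axis) symbols give the median log2 ratio of T48 over T24 over the list's measured genes (x axis) in each of the 6 lines. Q133H (red circles) is the only line with a median above 0 for the Notch and p53 lists, and its respiratory chain median, 0.17, is the lowest of the 6.

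Of 9798 genes with a value of at least 100 in both lines, the log2 ratio in Q133H exceeded that in wildtype by at least 1 for 960 and fell short of it by at least 1 for 244. The largest positive differences were those of the angiopoietin Angpt2 (43.3 and 119 in Q133H, log2 ratio 1.43, and -2.36 in wildtype), the matrix protein Olfml2b (323 and 1770, 2.45 and -1.31), cyclin B1 Ccnb1 (3782 and 1162, -1.70 and -5.14), Sytl1 (52.0 and 206, 1.96 and -1.46) and Pttg1 (0.17 and -3.24). Pttg1 was within 2-fold in the other 4 lines too, from -0.43 in +EMD to 0.26 in EMD-/y. Sytl1, Olfml2b and Angpt2 also had positive ratios in Del9599, of 1.34, 1.55 and 0.80. The largest negative differences from wildtype were those of Pebp1 (3655 and 3780, 0.05 and 3.56), Atp5md (392 and 408, 0.06 and 3.28), the mitochondrial folate enzyme Aldh1l2 (593 and 212, -1.48 and 1.56), the histone H2bc4 (953 and 997, 0.07 and 2.70) and Nrm (-2.14 and 0.31). Pebp1 and Atp5md belong to a set of features that differed between day 1 and day 2 in wildtype and EMD-/y cells together with predicted genes. The part of library preparation or annotation in this was not tested.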

How the data were processed

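RNA of 6 H2K myogenic progenitor lines at days 0, 1 and 2 was sequenced from poly-A libraries with paired reads. The labels give 3 replicates per group, while the methods give 3 technical replicates for each of 2 biological ones, and which labelled replicates are technical is not stated. The authors' provider filtered reads with SOAPnuke, mapped them to mm10 with HISAT2 and compared pairs of groups with DESeq2. The counting tool and whether it used strand are not given in the sources used here.

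The deposited tables give, as signal values made by the authors, 1 normalized count per gene and group, beside a log2 fold change, p-value, adjusted p-value and direction from the authors' own comparison, none of which was used. The analysis used 9 of the 27 deposited comparisons. No library has a column of its own (0 such columns), and library depth, spread and the omission of replicates were not analysed here. In the Q133H table the mean of the 2 values equals the mean over 6 libraries. All 1565 low genes checked (100%) were sums of whole reads of 6 libraries within 1e-09, with size factors of 0.92 to 1.08. This mean is divided between the days by a moderated ratio. The deposited transcript length was used for values per kilobase.

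Ratios used a pseudocount of 1, a minimum of 10 for the larger value and a 2-fold threshold, each within 1 table. Of 15828 numeric gene IDs 15809 were named from RefSeq (GRCm38.p6), and 1475 predicted genes were not named. Named genes are the 12 largest and 12 smallest ratios at values of at least 100, the 6 most abundant past 2-fold per direction, up to 4 leading members of each role of 25 gene lists with their defining members, and the 5 largest differences from wildtype per direction. The members and lists were chosen with earlier results of these data known. The alternatives were other folds, minimums, pseudocounts and scalings, leaving out predicted genes, and other tables for the same groups. The ratio and threshold were tested on simulated data. Promoters of 598 of 831 higher and 416 of 582 lower genes were matched. Computations used Python 3.11.15, numpy 2.4.6 and pandas 2.3.3. Some members of the lists are not reported here.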

Additional observations from a re-analysis of the deposited data

How the results depend on the processing

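The counts of higher and lower genes in Q133H, 831 and 582, depend on the threshold. At 1.5-fold they were 1788 and 1460 with 1484 shared with wildtype in direction, and at 4-fold they were 225 and 85 with 141 shared, beside 676 shared in the main setting. Without a minimum, with a minimum of 50, without a pseudocount, with a pseudocount of 5, with equal totals, with median centring and without predicted genes the counts stayed within 1.5 times, between 598 and 928 higher and 490 and 618 lower. Read from the tables against wildtype they were 920 and 694, and the ratios of muscle genes were larger, with a sarcomere median of 3.59 in place of 2.45 and 4.20 in place of 2.88 for Acta1, while the cell cycle median was -1.72 in place of -1.62. All 280 recomputed medians and single-gene ratios kept their sign and their side of 2-fold. They cover medians of lists and the genes named for extreme ratios, abundance or difference from wildtype. List members named close to 2-fold, such as Mef2d (1.01) and Myf6 (1.01), were not recomputed, so their calls may depend on the setting. No paired analysis was possible because the tables hold no values per sample, and no replicate could be left out. Values near 10 are limited by the moderated ratio: for T24 values of 10 to 50 the table against day 0 gave centred log2 differences from -0.80 (1st percentile) to 0.44 (99th percentile), and for the most abundant genes from -0.05 to 0.03.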

Other observations

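After the values were seen, 40 features were picked that had a log2 ratio of T48 over T24 of at least 2.5 in wildtype, one below 0.5 in size in Q133H and a value of at least 50 in Q133H. Of these, 35 are predicted genes, and Pebp1, Atp5md and H2bc4 are among the rest. Their median log2 ratio between day 1 and day 2 was 3.70 in wildtype, 3.93 in EMD-/y, 0.67 in S54F, -0.06 in Del9599, 0.08 in +EMD and 0.09 in Q133H. In Q133H their step lay between day 0 and day 1, with a median of 3.33 and 34 of 40 higher by at least 2-fold. Predicted genes made up 11.2% of the genes past 2-fold in wildtype and 12.3% in EMD-/y, where they were 6.02% and 5.61% of genes past the minimum. In Q133H these shares were 5.94% and 5.31%.

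The lowest ratio at any value in Q133H was that of Raet1d, a ligand of the natural killer cell receptor, with 44.7 normalized counts at T24 and 1.47 at T48, a log2 ratio of -4.21, and it too was picked after its values were seen. It had a log2 ratio of -1.27 in wildtype. Bglap, the osteocalcin gene, had 19.2 and 148 (2.88) in Q133H, while Runx2, the factor upstream of bone genes, had 1027 and 811 (-0.34).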
